A study of Homo sapiens with 2 samples.

Results

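The regions described here are the autosomal LSD2 peak intervals that the deposited list gives on 3 or more identical lines. The list was made by setting 1 LSD2 ChIP library against 1 input library, both from HepG2 cells in normal condition, and it holds 414095 lines for 370863 distinct intervals on hg19. After the sex chromosomes and 2 loci known for many alternative first exons were set aside (the protocadherin clusters on chromosome 5 and the UGT1A locus on chromosome 2), 360344 intervals remained. Of these, 4339 intervals, or 1.20%, were on 3 or more lines and are called repeated intervals below, while 32599 (9.05%) were on 2 lines and 323406 were listed once. The ChIP library came from a rabbit polyclonal antibody raised against recombinant human LSD2, and the input library had no antibody. HepG2 is a single aneuploid line derived from a human liver tumour, grown here in high-glucose medium with serum. With 1 library per condition, no value below has a replicate error, and no test between ChIP and input was possible.

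LSD2 is the product of KDM1B, a flavin-dependent demethylase of histone H3 that is known to associate with the bodies of transcribed genes. A gene body can hold other genes. Many small nucleolar RNAs (snoRNAs), which guide chemical modification of ribosomal and spliceosomal RNA, and many microRNAs (miRNAs), which repress messenger RNAs, are cut from the introns of host genes. Other stretches are shared by a read-through transcript and the neighbouring genes that it joins. The peak list carries no gene names and no peak height, and the sources used here do not say what a repeated line stands for. The file gives positions only. Genes are therefore named below from general knowledge of where they lie on hg19, and genes nested in a host are counted in the RefSeq gene table of GRCh38.p14, whose coordinates were not used to place any interval.

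Most repeated intervals were on few lines. Exactly 3 lines were found for 3792 intervals (87.4% of the repeated ones), 4 lines for 445 and 5 or more lines for 102, which is 0.0283% of all intervals within the rule. The highest number was 11. The identical lines of an interval always followed each other in the file, since the number of unbroken sets of identical lines equalled the number of distinct intervals, 370863. In the 2 loci set aside, 59 of 110 intervals were on 3 or more lines, with a maximum of 21.

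Several of the intervals on most lines, among them those on 11 and 10 lines, lay at host genes of small RNAs. The single interval on 11 lines, chromosome 11 from 62622984 to 62623448 (465 bp), lay at SNHG1, a non-coding host gene that serves to release snoRNAs, and the GRCh38.p14 table gives 9 snoRNA genes within its span. Its neighbour at 62621411 was on 6 lines, while the intervals on either side of these were listed once. The intervals on 10, 9 and 8 lines from 93468520 to 93470332 on chromosome 11 lay at TAF1D, a subunit of the RNA polymerase I promoter factor whose span holds 8 snoRNA genes and MIR1304. Along TAF1D the successive intervals from 93464343 were on 3, 6, 10, 9, 8, 6, 3 and 3 lines, a profile with a single peak in the middle. At GAS5 on chromosome 1, another non-coding snoRNA host with 11 snoRNA genes in the table, the interval from 173835001 to 173835298 was on 7 lines. The next one, at 173839606, was on 6 lines and lay 4307 bp away. Whether it lies inside GAS5 or in the protein-coding gene ZBTB37, which overlaps GAS5 in the table, was not determined. At EIF4A2 on chromosome 3, which encodes an RNA helicase of translation initiation and holds 5 snoRNA genes and MIR1248, 5 successive intervals from 186499983 to 186505254 were on 6, 6, 6, 5 and 4 lines. The 2 intervals that followed were on 2 lines and the third was listed once.

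**Figure D1:**
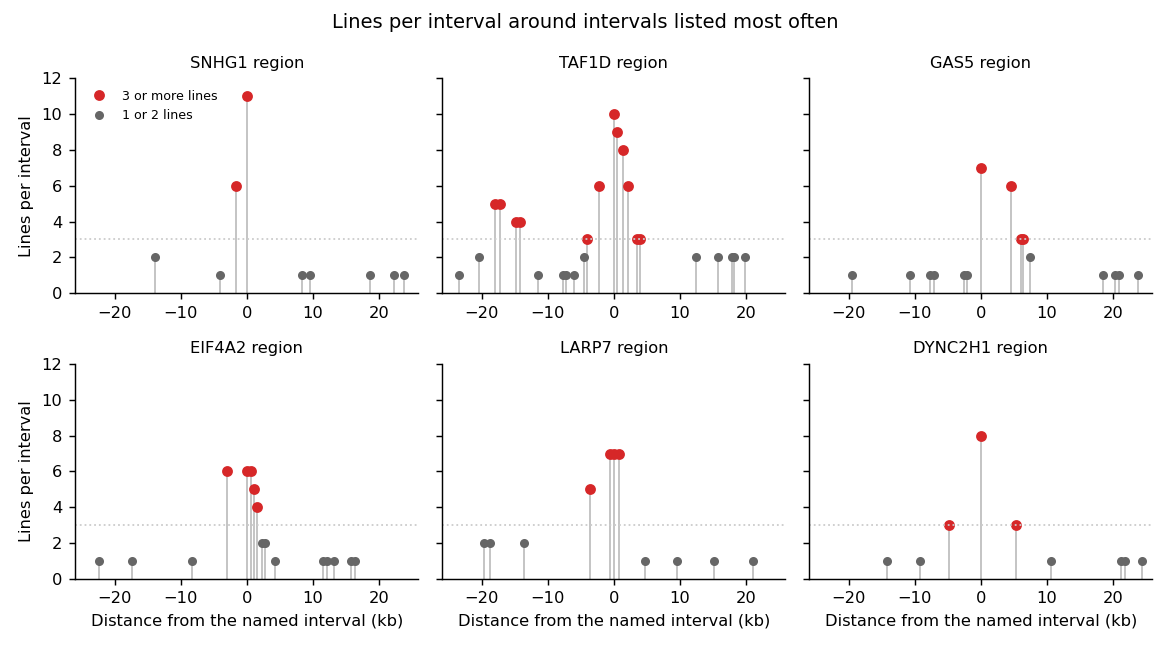
Number of identical lines per interval (vertical axis) against distance in kb from a named interval (horizontal axis), within 25 kb, in 6 regions. Red points are intervals on 3 or more lines and grey points are those on 1 or 2 lines; the line number is highest at 11 in SNHG1 and all intervals on 3 or more lines lie within 10 kb of the named interval in all 6 regions except TAF1D, where a second group on 4 and 5 lines lies to the left.

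Groups of the same kind lay at genes that hold miRNA clusters. At LARP7 on chromosome 4, which encodes a binding protein of 7SK RNA, 3 adjacent intervals from 113572232 to 113574113 were on 7 lines each and the one before them, at 113569377, was on 5. The GRCh38.p14 table gives 5 miRNA genes inside LARP7, the miR-302 and miR-367 cluster known from pluripotent stem cells. It also gives a separate non-coding gene, MIR302CHG, that overlaps LARP7. LARP7 is therefore named as the gene around the cluster, not as its host. On chromosome 13 the interval from 92003132 to 92003317 was on 5 lines at MIR17HG, the host of 6 miRNAs that are often amplified in tumours, and the next 2 intervals there were listed once. The mature RefSeq sequences of both clusters are shown because their genes lie within LARP7 and MIR17HG. Where those genes lie relative to the intervals was not determined. Capitals mark the seed, bases 2 to 8, which pairs with target RNAs, and all 11 sequences sought were found.

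hsa-miR-302a-3p: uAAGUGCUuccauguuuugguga
hsa-miR-302b-3p: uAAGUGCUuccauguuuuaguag
hsa-miR-302c-3p: uAAGUGCUuccauguuucagugg
hsa-miR-302d-3p: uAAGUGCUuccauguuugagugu
hsa-miR-367-3p: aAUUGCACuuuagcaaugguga
hsa-miR-92a-3p: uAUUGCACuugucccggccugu
hsa-miR-17-5p: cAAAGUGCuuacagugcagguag
hsa-miR-20a-5p: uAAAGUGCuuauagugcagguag
hsa-miR-18a-5p: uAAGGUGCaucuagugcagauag
hsa-miR-19a-3p: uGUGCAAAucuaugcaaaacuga
hsa-miR-19b-3p: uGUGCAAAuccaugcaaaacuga

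The 11 miRNAs carry 5 seeds. The 4 miR-302 members share AAGUGCU, while miR-367-3p of the chromosome 4 cluster and miR-92a-3p of the chromosome 13 cluster share AUUGCAC. Sequences of the intervals themselves are not shown, because no hg19 genome was used here.

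Further small-RNA hosts were found among the 102 intervals on 5 or more lines. RPL17 and RPL4, which encode proteins of the large ribosomal subunit, had 2 intervals each, on 6 and 6 lines at RPL17 (chromosome 18 from 47016737 to 47017226) and on 5 and 6 lines at RPL4 (chromosome 15 from 66794255 to 66796069). In the region of EIF4A1, a paralogue of EIF4A2, 3 intervals were on 5, 6 and 6 lines on chromosome 17 from 7473203 to 7479465. The first of them, ending at 7473506, lay apart from the others, which began at 7478941. Whether it lies inside EIF4A1 was not determined. In the MEG8 region of chromosome 14, an imprinted domain dense in snoRNA genes, all 6 intervals from 101378989 to 101440051 were on 3 to 6 lines. MEG8 holds 46 snoRNA genes in the GRCh38.p14 table, while RPL17 holds 3 and also reached 6 lines. At SNHG14 on chromosome 15, with 84 snoRNA genes, the highest number was 5. It was also 5 at RPS2, TPT1 and RABGGTB, with 2, 2 and 3 snoRNA genes. A relation between line number and nested genes was not tested. At SMC4 on chromosome 3, a condensin subunit that hosts MIR15B and MIR16-2, the first 2 intervals were on 5 lines and the following 15 were all on 2. At MCM7 on chromosome 7, a subunit of the replicative helicase that hosts MIR25, MIR93 and MIR106B, the highest number was 5. Near MIR497HG on chromosome 17, the host of MIR195 and MIR497, intervals were on 5, 5 and 6 lines. Over 12 snoRNA host regions, 28 of 58 intervals were on 5 or more lines. Over 5 regions of genes that hold miRNAs, this was 11 of 34. The share over all intervals is 0.0283%. Some regions are shorter than the whole domain, and whether each interval lies inside the named gene was not determined. At SNHG14 the region held 6 intervals with 0 listed once, while the wider SNRPN-SNHG14 locus held 66, with 37 listed once. At MEG8 the region also held 6 with 0 listed once, while the wider MEG3-MEG8 locus held 15, with 7 listed once. All 22 regions examined, which include loci of other kinds given below, held 48 of the 102 intervals (47.1%), so most of the 102 lay elsewhere. These regions were chosen after the line numbers had been seen, so the counts describe where the intervals lie and support nothing further.

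Other high line numbers lay at loci of other kinds. In the joining-segment region of the T-cell receptor alpha locus on chromosome 14, from 22945868 to 23012809, all 13 intervals were on 3 to 6 lines. This stretch begins and ends at repeated intervals, so it describes a group and not the locus. In the wider TRA-TRD locus, 194 of 220 intervals were listed once. At DYNC2H1 on chromosome 11, which encodes the motor of retrograde transport in cilia, 1 interval from 103278166 to 103278312 was on 8 lines with an interval on 3 lines to either side. The other 65 of the 68 intervals in that gene were listed once. The table gives 6 pseudogenes of mitochondrial genes inside DYNC2H1, which are copies of mitochondrial DNA inserted in the nuclear genome. Isolated high intervals also lay in SPTLC1, a subunit of serine palmitoyltransferase (chromosome 9 from 94869415 to 94869571, 6 lines, with 5 such pseudogenes), and in CATSPERT, an associated protein of the sperm calcium channel (chromosome 2 from 202415839 to 202416144, 5 lines, with 8). In JAK2, a cytokine-receptor kinase with 12 such pseudogenes, 6 successive intervals from 5089591 to 5094803 were on 4, 4, 3, 3, 4 and 5 lines. These counts are for whole genes, and where the pseudogenes lie relative to the intervals was not determined. Reads from such copies can also map to the mitochondrial genome, and the sources used here do not say how such reads were placed. Whether this bears on line numbers was not tested. The remaining intervals on 7 or more lines were at chromosome 2 from 239992348 to 239992713 (9 lines, in HDAC4, a class IIa histone deacetylase), chromosome 6 from 153986753 to 153986926 and chromosome 8 from 130512459 to 130512609 (7 lines each, the second in the non-coding gene CCDC26). The table gives MIR4440, MIR4441, MIR4269 and MIR2467 among 7 other genes that overlap HDAC4, and MIR3686 in CCDC26, and which of them lie near these intervals was not determined. The interval in HDAC4 had neighbours listed once on both sides, 9525 and 5751 bp away.

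The longest groups had few lines per interval and extended over longer stretches. A run is counted here where successive distinct intervals are all repeated, with no other interval between them. The run with most members held 36 intervals over 205.1 kb on chromosome 11 from 5325072 to 5530126, in an olfactory receptor cluster beside the beta-globin genes. OR51B5, whose span in the GRCh38.p14 table overlaps 11 other genes, lies in this stretch. Of its 36 intervals, 22 were on 3 lines, 13 on 4 and 1 on 5, and the intervals flanking the run were on 2 lines. The second run, 31 intervals over 175 kb on chromosome 2 from 144059682 to 144234712, lay in ARHGAP15, a GTPase-activating protein for Rac, and every interval in it was on exactly 3 lines. The third held 27 intervals over 253.5 kb on chromosome 12 from 20966392 to 21219858, at the liver uptake transporter SLCO1B3 and the read-through gene SLCO1B3-SLCO1B7. There, 24 intervals were on 3 lines and 3 on 4, and both flanking intervals were listed once. This run also had the longest span of all.

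**Figure D2:**
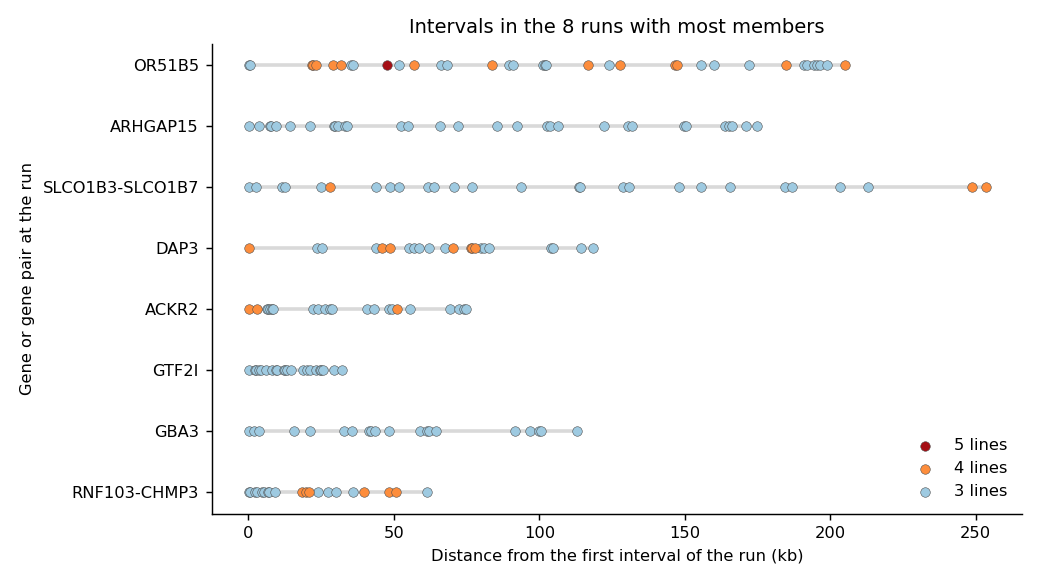
Positions of the intervals in the 8 runs with most members, in kb from the first interval of each run (horizontal axis), one run per row named by a gene at it. Points are coloured by 3, 4 or 5 lines; ARHGAP15, GTF2I and GBA3 hold 3-line intervals throughout, and OR51B5 mixes 3, 4 and 5 lines.

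Other long runs differed in how tightly the intervals were packed. The run at GTF2I, a transcription factor of the Williams syndrome region with near-identical copies nearby, held 22 intervals in 32.33 kb on chromosome 7 from 74116040 to 74148367, with a median gap of 981 bp and 23.8% of the stretch covered. Because of those copies, reads there may be divided among them, and whether this bears on line numbers was not tested. By contrast, the run at PALM2AKAP2, a gene for a kinase-anchoring protein on chromosome 9 from 112548055 to 112710471, held 18 intervals in 162.4 kb with a median gap of 8767 bp and 2.40% covered. Runs of 22 intervals also lay on chromosome 1 from 155584856 to 155703274, where the mitochondrial ribosome protein gene DAP3 lies, and on chromosome 3 from 42846873 to 42921639, at the atypical chemokine receptor ACKR2. GBA3, a cytosolic beta-glucosidase, and the read-through RNF103-CHMP3 had runs of 20 intervals, PTPRK, a receptor tyrosine phosphatase, and STON1-GTF2A1L had 19, and GSTCD, which encodes a protein with a glutathione transferase-like domain, had 18. A run of 18 on chromosome 2 from 67351191 to 67439890 is given by position only. The run of 16 at BTBD1 on chromosome 15 from 83679051 to 83733504 was on higher numbers than the others, with 13 of its intervals on 4 lines. Of the 17 runs of 16 or more members, 10 were on 3 lines throughout.

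Repeated intervals were grouped along the chromosomes. After a repeated interval, the next distinct interval was also repeated in 52.7% of cases (2287 of 4339, Wilson 95% interval 51.2% to 54.2%). After an interval listed once this was 0.266%, and the share over all intervals is 1.20%. The intervals are not independent, since neighbours can lie in the same gene, so these bounds cover counting only. The 4339 repeated intervals formed 2052 runs. Of these runs, 1138 held a single interval and 914 held 2 or more. The runs of 2 or more took 73.8% of the repeated intervals. Runs of 10 or more numbered 41 on 20 chromosomes and held 649 intervals (15.0%). The runs of 2 or more had a median span of 3.67 kb (quartiles 1.79 and 9.11 kb) and together spanned 9.87 Mb.

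Since 87.4% of all repeated intervals were on exactly 3 lines, most neighbours within a run have equal line numbers whatever their arrangement, and nothing is read from the shares of equal pairs and runs. Of 2287 pairs of successive repeated intervals, 1984 (86.8%) were on the same number of lines, 270 (11.8%) differed by 1 line and 33 (1.44%) differed by more. Of the 914 runs of 2 or more, 729 had 1 line number throughout. The 2052 runs had 4104 flanking positions, the interval before and the interval after each run. An interval alone between 2 runs counts for both. At 2384 of these positions (58.1%) the interval was on 2 lines, against 9.05% of all intervals. At 1720 (41.9%) it was listed once, a difference of 2 or more lines from the run. Of single repeated intervals, 288 of the 1138 had neighbours listed once on both sides. The grouping depended on distance. When the next interval was within 1 kb, it was also repeated in 87.7% of 896 cases, at 2 to 5 kb in 54.4% of 1037 and at 20 to 50 kb in 21.7% of 258. After intervals listed once, the shares at the same distances were 0.0232%, 0.200% and 0.593%.

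**Figure D3:**
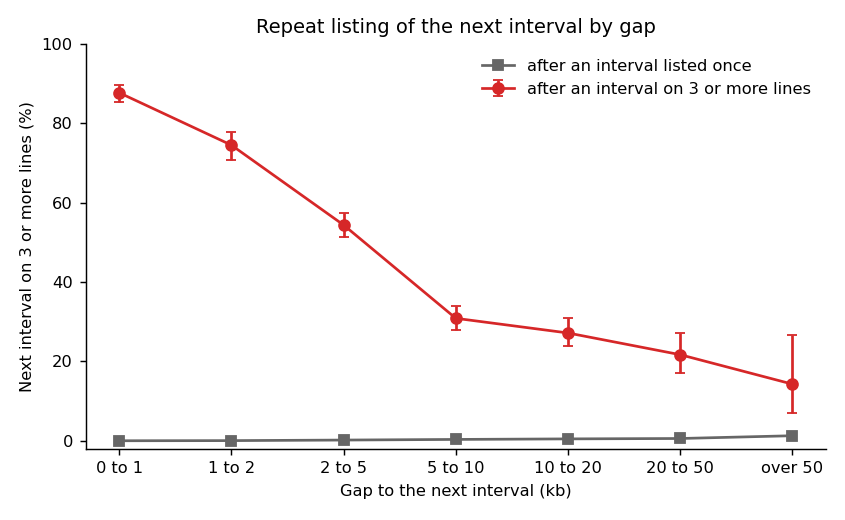
Share of next intervals that are on 3 or more lines (vertical axis, percent) by the gap to the next interval (horizontal axis, kb). Red circles follow an interval on 3 or more lines, with Wilson 95% intervals, and stand at 87.7% within 1 kb and at 14.3% beyond 50 kb; grey squares follow an interval listed once and stay below 1.3%.

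The share of repeated intervals differed between chromosomes. It was highest on chromosome 19, at 5.29% of 4915 intervals (Wilson 95% interval 4.70% to 5.95%), a chromosome dense in genes and in tandem zinc finger genes. Chromosome 17 followed with 2.97% (2.67% to 3.31%) and chromosome 15 with 2.47% (2.18% to 2.80%). The lowest shares were 0.506% on chromosome 13 (0.393% to 0.650%) and 0.557% on chromosome 8 (0.458% to 0.678%). Over the 22 autosomes, Spearman's rho between this share and the number of protein-coding genes per Mb in the GRCh38.p14 table was 0.82, and 0.79 without chromosome 19. Against the number of LSD2 intervals per Mb, rho was -0.51, and -0.44 without chromosome 19. The number of intervals divides the share and enters the density, so a negative value is partly built in. Between repeated intervals per Mb and protein-coding genes per Mb, rho was 0.78, and 0.75 without chromosome 19. Chromosomes are few and share 1 library, so these values are descriptions. By 1 Mb window, repeated intervals were found in 1081 of 2733 windows, and the most, 48 of 110 intervals, were on chromosome 11 from 5000001 to 6000000. Chromosome 2 from 144000001 to 145000000 held 40 of 157, and chromosome 19 from 12000001 to 13000000, a zinc finger gene cluster, held 33 of 114.

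**Figure D4:**
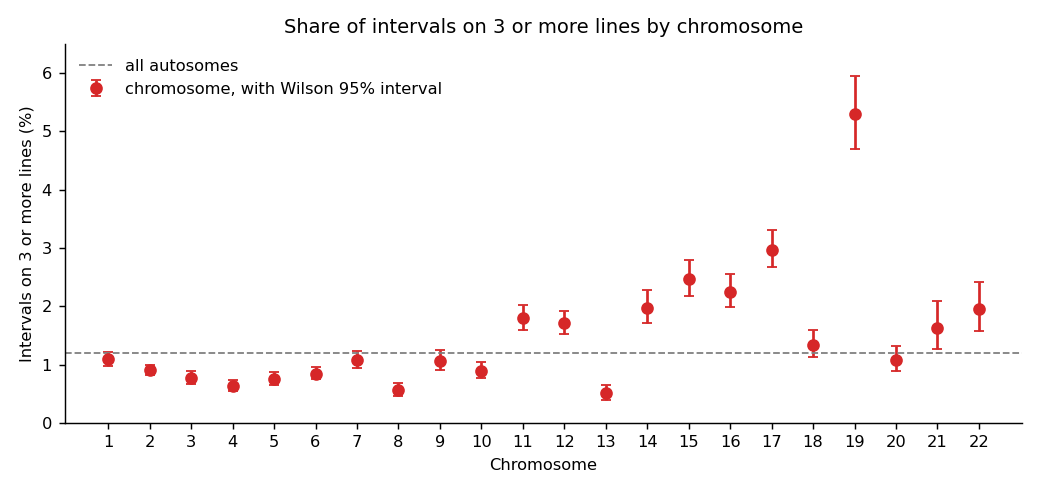
Share of intervals on 3 or more lines (vertical axis, percent) for each of 22 autosomes (horizontal axis), with Wilson 95% intervals and the share over all autosomes as a dashed line. Chromosome 19 stands highest at 5.29% and chromosome 13 lowest at 0.506%.

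Repeated intervals were close to intervals listed once in width. The repeated intervals had quartiles of 153 and 309 bp around a median of 179 bp, whose 95% interval was 175 to 184 bp. Intervals listed once had quartiles of 152 and 298 bp around a median of 173 bp (172 to 173 bp). Intervals on 2 lines, just outside the rule, also had a median of 179 bp, and those on exactly 3 lines, just inside it, again 179 bp. In the 1 Mb windows that held a repeated interval, those listed once were 177 bp wide in the median (176 to 178 bp), which lies inside the interval of the repeated ones. Intervals of 400 bp or more made up 9.77% of the repeated ones, against 9.29% of those listed once in the same windows and 7.79% of all those listed once. The 102 intervals on 5 or more lines had a median of 213 bp with a wide interval of 162 to 241 bp. Repeated intervals had the wider median on 17 of the 22 chromosomes, most clearly on chromosome 6 (227.5 against 180 bp), and the narrower on 5, among them chromosome 17 (178 against 187 bp). The widest repeated interval was 2019 bp on chromosome 16 from 56971200 to 56973218, on 3 lines.

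**Figure D5:**
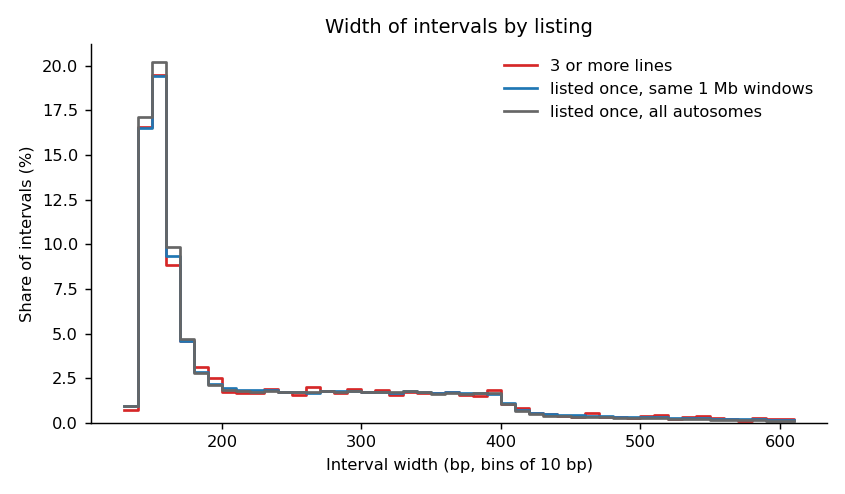
Share of intervals (vertical axis, percent) by width in bins of 10 bp (horizontal axis, bp) for intervals on 3 or more lines (red), those listed once in the same 1 Mb windows (blue) and all listed once (grey). The 3 curves have the same shape, with 19.5%, 19.4% and 20.2% in the highest bin, from 150 bp.

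Spacing was also close to that of intervals listed once in the same windows. The median gap from a repeated interval to the next interval of any kind was 3813 bp, with bounds of 3614 and 4029 bp. After intervals listed once in the same windows it was 3821 bp (3785 to 3857 bp), and after all intervals listed once 4203 bp (4181 to 4226 bp). Gaps under 1 kb followed 20.7% of repeated intervals (Wilson 95% interval 19.5% to 21.9%), against 17.3% of all those listed once and 19.1% of those in the same windows. Around a repeated interval the 1 Mb window held a median of 144 intervals (quartiles 113 and 176), and the same median, 144, was found for all intervals listed once. For those listed once in the same windows it was higher, at 155 (quartiles 124 and 185). Runs of 10 or more were somewhat closer, with a median gap of 3011 bp, and single repeated intervals were farther apart, at 7322 bp. That last order follows in part from the definition of a run, because a close next interval was often repeated too.

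A list of 54 loci with known overlapping, nested or duplicated genes was examined by class, with windows rounded to 100 kb. The list was chosen with earlier results of these data known, and it includes loci of several long runs named above. Its shares therefore describe these loci and support nothing further. Of these loci, 41 held a repeated interval, and 356 of their 3498 intervals (10.2%) were repeated, against 1.20% of all intervals. The 28 read-through loci held 239 of 1386 (17.2%), with a member in 22 of them. The share was 57.9% at TMEM189-UBE2V1 (11 of 19 intervals), a read-through with a ubiquitin-conjugating enzyme variant, and 47.7% at STON1-GTF2A1L (21 of 44). At SLCO1B3-SLCO1B7 27 of 54 intervals were repeated, all of them in the run described above. At TSNAX-DISC1, IQCJ-SCHIP1, RPS10-NUDT3, ARHGAP19-SLIT1, BIVM-ERCC5 and STX16-NPEPL1 no interval was on more than 2 lines. At RPS10-NUDT3 all 38 intervals were listed once.

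The other classes differed. The 4 HOX clusters, which encode body-axis transcription factors, each held repeated intervals, 21 of 100 in all, from 7 of 15 at HOXC to 1 of 22 at HOXD. The 6 imprinted or small-RNA loci held 25 of 158 (15.8%), among them 12 of 66 at SNRPN-SNHG14 and 0 of 46 at KCNQ1, where 24 intervals were on 2 lines. Nested or antisense loci held 19 of 388 (4.90%), and at titin and its antisense gene 53 of 79 intervals were on 2 lines and 3 on 3. The 6 antigen receptor loci held 21 of 550 (3.82%), of which 17 were at TRA-TRD, and IGK, TRB and TRG held none. The 5 segmentally duplicated loci held 31 of 916 (3.38%), 26 of them at the locus with GTF2I. The 54 loci together held 8.20% of all repeated intervals, so most repeated intervals lay outside this list.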

How the data were processed

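LSD2 ChIP and input were 1 library each, grouped by source name. Per the file headers, the authors trimmed reads, removed duplicates and ran MACS on LSD2 with input as the control (read and fragment length 120 bp, effective genome size 2700 Mb, p-value cutoff 1e-05, enrichment factor 32, local biases detected). The submitters' processing notes name BWA and hg19, without versions. The other deposited values are start and end positions in bases, with no score. The sources used here do not give the depth, and peak calling depends on it.

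Identical lines were collapsed with pandas 2.3.3 in Python 3.11.15, and line number, width, gap to the next distinct interval and runs were computed. Starts were read as counted from 0 and are printed counted from 1. Intervals on shares are Wilson 95% intervals and those on medians are binomial order-statistic intervals (SciPy 1.17.1). Both cover counting only. No significance test was run on the data. The counting of runs was checked on simulated lists with known runs.

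The text names the runs with most members, with ties, the intervals on 7 or more lines and the listed loci that hold such a run or 20 or more members. One locus that this rule would name is not reported here. Host regions among intervals on 5 or more lines, and the other loci given as examples, were chosen after their values were seen. The members and lists were chosen with earlier results of these data known.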

Additional observations from a re-analysis of the deposited data

How the results depend on the processing

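Of 36 alternative values, 18 stayed within the interval of the reported value or, for counts, within 1.5 times it. Putting back the 2 loci and chromosomes X and Y, or leaving out the run with most members, moved none of 6 values each. Counting intervals on 2 or more lines gave 36938 intervals (10.25%), 11391 runs and a repeated next interval in 69.16%. Counting 4 or more lines gave 547 (0.1518%), 324 runs, 40.77% and a median gap of 4030 bp. With only the intervals 173 bp or wider kept, which leaves fewer by construction, there were 2286 (1.259%) in 1322 runs, with 42.17% followed by a repeated interval, a median width of 301 bp and a median gap of 6327 bp. Joining repeated intervals at most 200 kb apart gave 1352 groups. Intervals listed once in the same 1 Mb windows had a median width of 177 bp and a median gap of 3821 bp. No paired analysis was possible because only 1 library stood for each condition. Without depth or peak height, an absent interval cannot be told apart from too few reads.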
